A study of Homo sapiens with 2 samples.

Results

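Clusters between neighbouring genes are stretches of RNA bound by Flag-RBM47 that, by their location labels, lie outside every annotated gene. They lie within 10 kb past the end of a gene and within 10 kb before the start of another. They were taken as the clusters whose location label consists of exactly these downstream and upstream labels, and they numbered 2247 of 233546 (0.962%, Wilson 95% interval 0.923 to 1.00). None of them carries a gene ID in the deposited table. They held 8817 tags in replicate 1 and 31204 tags in replicate 2, which is 0.888% ± 0.00823 (SD, n = 2) of the tags of a replicate. A tag is a sequenced RNA fragment counted once, and a cluster is a run of overlapping tags on 1 strand.

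The cells were MDA231-BrM2a, a non-clonal line derived from MDA-MB-231 breast cancer cells for its spread to the brain. They expressed wild-type RBM47 with a Flag tag from a doxycycline-inducible transgene and were given 1 ng/ml doxycycline for 3 days. HITS-CLIP was performed on 2 replicates of this single group. In this assay ultraviolet light bonds RNA to the proteins in contact with it, and the RNA that comes down with the tagged protein is sequenced. Control libraries were not analysed here, which leaves the background without a measurement, and the labels do not say whether the replicates were separate cultures.

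RBM47 is an RNA-binding protein with RRM domains that is known to bind introns and 3'UTRs and to take part in splicing, mRNA stability and C-to-U editing. RNA between annotated genes can come from a longer 3' end, from transcription that runs on past a gene, from a start site before the next gene, or from a transcript missing from the annotation. A cluster of tags shows where the protein touched RNA, but not which of these transcripts the RNA came from.

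Among the 20 most heavily bound places between genes, those past NEAT1, GPRC5A and VEZT were followed by a microRNA gene. By GENCODE gene order, a microRNA gene came next in 10 of the 220 places where the next gene could be named. MicroRNAs are short RNAs that guide Argonaute proteins to mRNAs, mostly through the seed, bases 2 to 8 of the mature strand. The mature strands of microRNA genes beside the 20 most heavily bound places are given here from RefSeq (GRCh38.p14), with the seed in capitals. They show which small RNAs are encoded near the bound RNA. MIR30A and MIR30C2 are included because GENCODE places them inside LINC00472, the 5' gene of 1 of these places. MIR612, the 3' neighbour of the most heavily bound place, is given by name.
hsa-miR-614: gAACGCCUguucuugccaggugg
hsa-miR-331-3p: gCCCCUGGgccuauccuagaa
hsa-miR-331-5p: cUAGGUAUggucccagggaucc
hsa-miR-30a-5p: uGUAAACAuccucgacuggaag
hsa-miR-30a-3p: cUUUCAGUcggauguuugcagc
hsa-miR-30c-5p: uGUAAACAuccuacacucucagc
hsa-miR-30c-2-3p: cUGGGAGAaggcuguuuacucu
The miR-30a-5p and miR-30c-5p strands share the seed GUAAACA, and the other strands each have a seed of their own. These are sequences of the neighbouring genes, not of the clusters.

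The whole table held 999047 tags of replicate 1 and 3489697 of replicate 2, and every listed cluster had at least 5 tags in total and at least 1 in each replicate. The sums describe the listed clusters and are not library depths. Genes that MDA-MB-231 cells are known to express were bound, with 3345 tags on VIM, 8676 on CD44, 6569 on EGFR and 3265 on AXL. ESR1, PGR, CDH1, KRT20 and PTPRC had 0 listed clusters, and ERBB2 had 1 cluster of 5 tags. Such counts reflect binding and expression together.

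The tag counts of clusters between neighbouring genes were low for the most part. The median cluster held 8 tags (quartiles 6 and 14) and was 83 nt long, and lengths ran from 47 nt at the 10th percentile to 163 nt at the 90th. The median was 2 tags in replicate 1 and 6 tags in replicate 2. There were 942 clusters with at least 10 tags, 196 with at least 30 and 38 with at least 100, and the last of these held 30.2% of the tags. As a share of all clusters that reach the same minimum, they made up 0.992%, 0.886% and 0.843%.

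Binding per cluster was then set against the clusters that carry only 1 of the labels, to ask whether RNA flanked by genes on both sides was bound differently. The mean of log2(tags + 1) was 1.80 in replicate 1 and 3.15 in replicate 2. For the 14654 clusters that lie only downstream of a gene it was 1.82 and 3.17. The difference was -0.01 in replicate 1 and -0.02 in replicate 2, with a mean of -0.02 ± 0.00530 (SD, n = 2). It turned positive when only clusters with at least 10 tags (0.01) or at least 30 tags (0.13) were kept, so its direction depended on the minimum. Over all clusters it was -0.03 without the most heavily bound place, which lay past NEAT1. The minimums were not applied without that place, so its part in the reversal was not tested. Against the 1669 clusters that lie only upstream of a gene, the difference was 0.07 and 0.10, with a mean of 0.08 ± 0.02 (SD, n = 2). Against the 40168 deep intergenic clusters, far from any annotated gene, it was 0.07 and 0.14 (mean 0.10 ± 0.05, SD). Clusters between genes were thus somewhat fuller than those of either of these last classes in both replicates. Clusters labelled 3'UTR alone were fuller, with differences of -0.50 and -0.70 (mean -0.60 ± 0.14, SD). Clusters labelled intron alone held fewer tags, with differences of 0.20 and 0.32 (mean 0.26 ± 0.08, SD). With 2 replicates the smallest p that a two-sided exact sign-flip permutation allows is 0.5, and that is the value for each of these differences.

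Among clusters between genes, 8.72% (Wilson 95% interval 7.63 to 9.96) held at least 30 tags, compared with 9.01% (8.55 to 9.48) of the downstream clusters and 6.83% (5.72 to 8.14) of the upstream clusters. At 100 tags the order against the downstream clusters turned, with 1.69% (1.23 to 2.31) compared with 1.35% (1.18 to 1.55) and 0.719% (0.412 to 1.25). Several of the clusters between genes with at least 100 tags, among them the 5 fullest, lay in the single place past NEAT1. The shares were not computed without it. The intervals of clusters between genes and downstream clusters overlap at both minimums. These intervals cover counting error only, since clusters of 1 transcript share their source.

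The position of these clusters between their neighbours was examined next. The label fixes that annotated genes lie within 10 kb on both sides, but not which of the genes were bound or which is nearer. For each cluster the nearest listed cluster with a gene ID, a gene cluster from here on, was found on its 5' side and on its 3' side. On the same strand, 2104 clusters (93.6%) had a gene cluster within 10 kb on the 5' side and 779 (34.7%) within 10 kb on the 3' side. Within 1 kb the numbers were 491 (21.9%) and 61 (2.71%). The gene cluster on the 5' side, the end of the preceding gene, was the nearer in 1850 of the 2175 clusters with any gene cluster within 50 kb (85.1%, Wilson 95% interval 83.5 to 86.5). Only 1185 clusters had a gene cluster within 50 kb on both sides, and those with a gene cluster on the 5' side alone counted as nearer to it. Thus a listed cluster of the preceding gene was mostly nearer than that of the next gene, or the only such cluster within 50 kb. For the downstream clusters this share was 99.2%, and for the upstream clusters 21.9%, as their labels require in part.

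**Figure D1:**
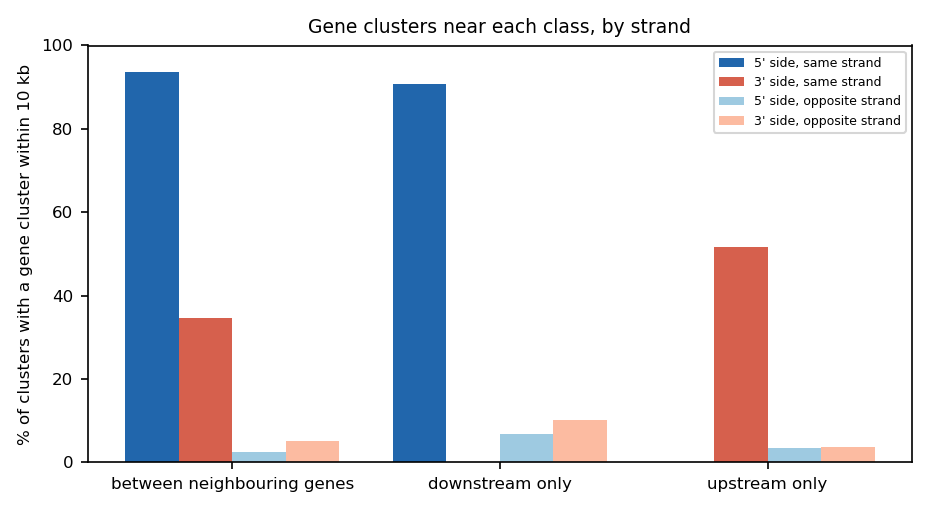
Percentage of clusters (y axis) that have a gene cluster within 10 kb, for clusters between neighbouring genes, clusters only downstream of a gene and clusters only upstream of a gene (x axis). Bars stand for the 5' side and the 3' side on the same strand (dark) and on the opposite strand (pale); the clusters between genes reach 93.6% and 34.7% on their own strand but 2.58% and 5.07% on the opposite strand.

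Few of the neighbours were on the opposite strand. There, 58 clusters (2.58%) had a gene cluster within 10 kb on the 5' side and 114 (5.07%) on the 3' side, and the share nearer to the 5' side was 50.1%. The plot of gene clusters by strand shows this contrast, and it also shows that the downstream clusters had 0 gene clusters within 10 kb on the 3' side of their own strand. The labels were therefore given with regard to strand, and an upstream label refers to a gene that runs in the same direction as the bound RNA.

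The nearest gene cluster on the 5' side was labelled 3'UTR in 1506 of 2104 cases (71.6%) and both 3'UTR and intron in 258 (12.3%). On the 3' side the nearest gene cluster was in an intron in 343 of 779 cases (44.03%), in coding sequence in 160, and in a 5'UTR in 127 (16.3%).

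There were 1185 clusters with gene clusters within 50 kb on both sides. The median position was 26.6% of the way from the 5' gene cluster to the 3' gene cluster, with quartiles of 9.66% and 50.9%. The 25% of the way nearest to the 5' gene cluster held 573 clusters, and the 25% nearest to the 3' gene cluster held 91.

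Clusters close to the preceding gene were fuller. Those within 1 kb of the 5' gene cluster had a median of 10 tags and a mean log2(tags + 1) of 1.97 in replicate 1 and 3.36 in replicate 2. Those 5 to 10 kb away had a median of 8 tags and means of 1.74 and 3.02. The difference was 0.23 and 0.33 in the replicates, or 0.28 ± 0.08 (SD, n = 2), which is larger than the spread between replicates. The two-sided exact sign-flip permutation gave 0.5, the smallest value it can give. Among clusters within 1 kb, 14.1% reached 30 tags, compared with 7.04% of those 5 to 10 kb away. Clusters only downstream of a gene showed a difference of the same size, 0.29 ± 0.07 (SD, n = 2). The 54 clusters 10 to 50 kb from the 5' gene cluster had a median of 6 tags, and 0 of them reached 30 tags. A further 89 clusters had no 5' gene cluster within 50 kb, and 2 of these reached 30 tags.

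On the 3' side the 61 clusters within 1 kb of the next gene's cluster were fuller than the 353 clusters 5 to 10 kb away by 0.33 in replicate 1 and 0.43 in replicate 2, or 0.38 ± 0.07 (SD, n = 2). The value was 0.26 ± 0.06 without the most heavily bound stretch, described in the next paragraphs. For clusters only upstream of a gene the difference was 0.06 in replicate 1 and -0.01 in replicate 2, so the replicates did not share a direction. The difference between these classes was not tested.

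**Figure D2:**
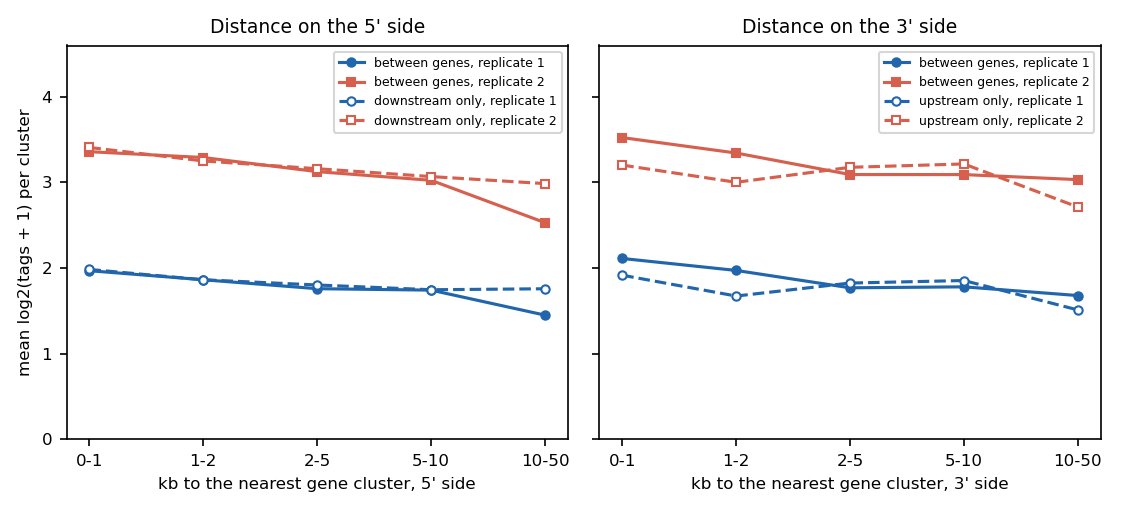
Mean log2(tags + 1) per cluster (y axis) by distance in kb to the nearest gene cluster (x axis), on the 5' side (left) and on the 3' side (right). Circles and squares are replicates 1 and 2, filled for clusters between neighbouring genes and open for clusters with only 1 of the labels; on the 5' side the filled points fall from 1.97 and 3.36 within 1 kb to 1.74 and 3.02 at 5 to 10 kb.

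Since neighbouring clusters may belong to 1 transcript, clusters on the same strand were joined when no more than 10 kb apart with no gene cluster between them. This gave 371 stretches with a median of 3 clusters, of which 109 were single clusters. The 67 stretches with at least 10 clusters held 1249 clusters in all. The tags were concentrated, as the 84 stretches with at least 100 tags held 82.1% of the tags and the 20 with the most tags held 50.8% ± 2.33 (SD, n = 2). A gene cluster within 50 kb named the 5' gene of 328 stretches and the 3' gene of 180, and 33 had neither. The 5' gene cluster had a 3'UTR label in 286 of the 328.

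**Figure D3:**
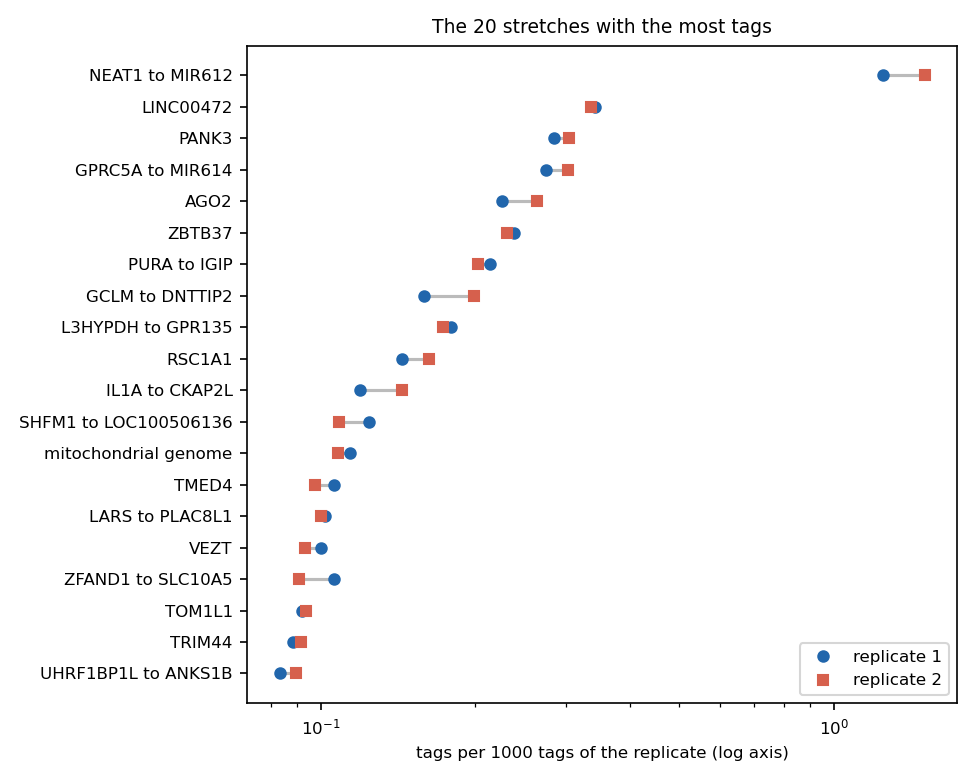
Tags per 1000 tags of each replicate (x axis, log scale) for the 20 stretches with the most tags, named by the gene on the 5' side and, where 1 was found, the gene on the 3' side (y axis). Circles are replicate 1 and squares replicate 2; the NEAT1 to MIR612 stretch, at 1.37 ± 0.182 (SD, n = 2), stands apart from the next, LINC00472, at 0.339 ± 0.00458.

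The stretch with the most tags lay 3' of the clusters assigned to NEAT1. NEAT1 is the long noncoding RNA that builds nuclear paraspeckles and is made in a shorter and a longer form. The stretch ran from 64963725 to 64968319 on the plus strand of chromosome 11 (hg18). It consisted of 8 clusters with 1244 tags in replicate 1 and 5245 in replicate 2. It began 6 nt past the last NEAT1 cluster and ended 26 nt before a cluster assigned to MIR612, and its clusters covered 91.5% of its length. NEAT1 itself had 19140 and 76016 tags in 5 clusters, and the MIR612 cluster had 282 and 1040. Per kb of cluster the stretch held 1544 tags by the total, compared with 5648 for NEAT1. Binding thus continued past the clusters assigned to NEAT1 at a lower density than that of NEAT1 as a whole. At the border the last NEAT1 cluster held 83.7 tags per 100 nt, and the first cluster of the stretch held more, 205. Whether the stretch belongs to the longer NEAT1 form was not tested. This single stretch held 14.1% of the tags of clusters between genes in replicate 1 and 16.8% in replicate 2 (15.5% ± 1.91, SD). The 5 fullest clusters between genes were all part of it. They lay at 64966917 to 64968319 (471 and 1920 tags), 64963725 to 64964507 (312 and 1295), 64966168 to 64966711 (145 and 583), 64965515 to 64966162 (99 and 602) and 64964912 to 64965472 (125 and 534).

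The second stretch lay 3' of the clusters assigned to LINC00472, a long noncoding RNA gene. The stretch spanned 72170772 to 72179995 on the minus strand of chromosome 6. It was built from 49 clusters with 342 tags in replicate 1 and 1172 in replicate 2, the fullest with 143 tags in all. The clusters assigned to LINC00472 held only 104 and 330 tags, so the stretch carried more tags than the gene as annotated in the table. In the current GENCODE annotation the LINC00472 gene holds MIR30A and MIR30C2, whose mature strands are given above. Whether the stretch lies inside the gene as now annotated was not tested. The next cluster on the 3' side was labelled upstream alone and adjoined the stretch, so the bound RNA ran on under another label.

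The stretch 3' of PANK3, a kinase of the first step in coenzyme A synthesis, lay between 167912741 and 167915203 on the minus strand of chromosome 5. It held 285 and 1062 tags in 9 clusters, began 0 nt past a PANK3 3'UTR cluster of 390 tags, and was covered by clusters over 91.6% of its length. The fullest of its clusters lay at 167914316 to 167914850 (85 and 360 tags) and 167912853 to 167913743 (67 and 290). PANK3 had 558 and 2120 tags. The density of 594 tags per kb of cluster was above the 433 of PANK3 as a whole.

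GPRC5A, an orphan receptor induced by retinoic acid, preceded the fourth stretch, which spanned 12957993 to 12959580 of chromosome 12 on the plus strand. Its 6 clusters held 275 and 1057 tags, and 289 nt past it came the first of 2 clusters assigned to MIR614, with 174 and 721 tags together. Its fullest clusters lay at its ends, at 12959223 to 12959580 (96 and 366 tags) and 12957993 to 12958446 (90 and 362). GPRC5A had 233 and 879 tags in its own clusters, fewer than the stretch in each replicate. Bound RNA thus ran from the GPRC5A 3'UTR to the microRNA gene with gaps of at most 289 nt between the listed clusters of the stretch and its borders.

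AGO2 encodes the Argonaute protein that is guided by microRNAs and can cut their targets. The stretch 3' of it, at 141605168 to 141610150 on the minus strand of chromosome 8, held 225 and 920 tags in 25 clusters and began 3 nt past an AGO2 3'UTR cluster. AGO2 had 123 and 443 tags, so the stretch held 183% of the gene's own tags in replicate 1 and 208% in replicate 2. The tags were spread over the stretch, and its fullest cluster held 149 tags.

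The sixth stretch followed ZBTB37, a gene of the BTB zinc finger family, and spanned 172124293 to 172132579 of chromosome 1 on the plus strand. Its 49 clusters held 238 and 805 tags, although ZBTB37 had no more than 18 and 27 tags in its own clusters, the nearest of them 1982 nt away. Clusters without a gene ID lay at intervals in the space between, the closest 36 nt from the stretch. The transcript to which the bound RNA belongs was not tested.

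**Figure D4:**
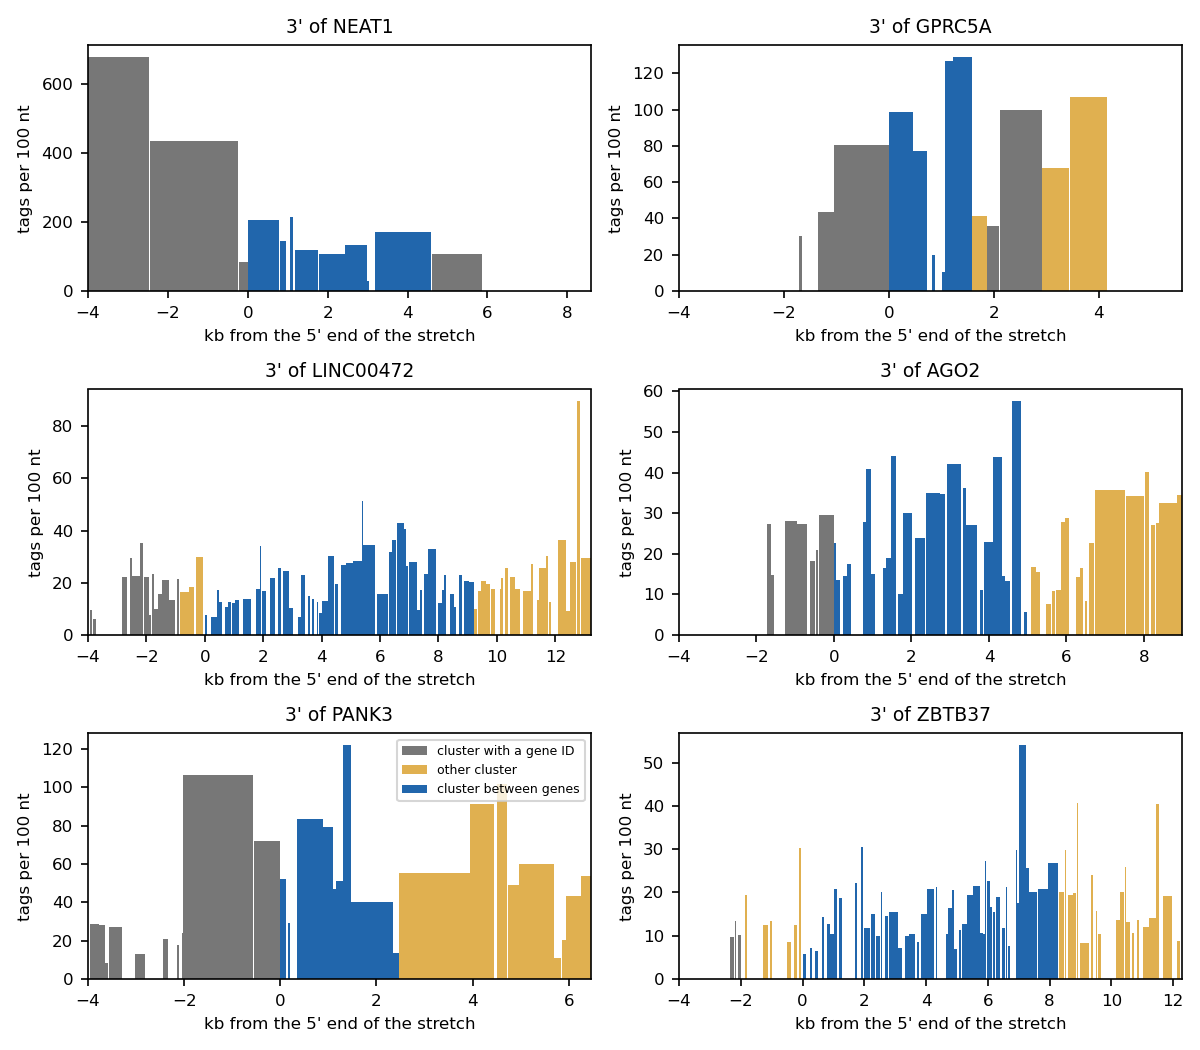
Tags per 100 nt of cluster by the authors' total (y axis, linear from 0) along the 6 stretches with the most tags, each bar 1 cluster as wide as the cluster, with x in kb from the 5' end of the stretch in the direction of transcription. Blue bars are clusters between neighbouring genes, grey bars clusters with a gene ID and yellow bars other clusters of the same strand. In the NEAT1 panel the blue bars reach 214 tags per 100 nt. In the LINC00472, PANK3, GPRC5A, AGO2 and ZBTB37 panels yellow bars continue past the stretch.

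Some stretches continued under another label. On the 5' side, 206 of the 371 stretches had a cluster of any label within 1 kb, which carried a gene ID in 164 cases and was only downstream of a gene in 38. On the 3' side, 69 had a cluster within 1 kb, which carried a gene ID in 20 cases, had a genic label without a gene ID in 30, and was only upstream of a gene in 15. The stretches 3' of PANK3, GPRC5A and AGO2 were among those followed by exons without a gene ID, 9, 0 and 95 nt away. The other stretches, 165 on the 5' side and 302 on the 3' side, had no listed cluster within 1 kb of that end.

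In 15 stretches both borders lay within 1 kb of clusters of different genes, and these held 10775 tags. These stretches were picked by their borders alone. Gaps inside them reached 1054 nt between STRN3 and LOC100506071 and 1131 nt between POLR1A and LOC90784. Besides NEAT1 and GPRC5A with their microRNA genes, the pairs included PURA, which binds purine-rich DNA and RNA, and IGIP, a gene named for inducing IgA. The 37 clusters between these held 213 and 707 tags, starting 11 nt past a PURA 3'UTR cluster and ending 163 nt before an IGIP 5'UTR cluster. PURA had 248 and 1026 tags and IGIP 51 and 201, so the space between the genes carried more tags than the second of them.

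Between LARS, which encodes leucyl-tRNA synthetase, and PLAC8L1 lay 35 clusters with 102 and 349 tags, adjoining a 5'UTR cluster of PLAC8L1. Between ZFAND1 and the solute carrier gene SLC10A5 lay 23 clusters with 106 and 316 tags, 13 nt from the first SLC10A5 cluster. SLC10A5 had 25 and 93 tags, again fewer than the RNA before it, whereas PLAC8L1 had 129 and 446, more than the RNA before it. Between ZBTB1 and HSPA2, a heat shock protein of the HSP70 family, lay 10 clusters with 62 and 197 tags, and HSPA2 had 48 and 143. In each of these places the listed clusters followed each other from gene to gene with gaps of at most 830 nt, 588 nt and 233 nt.

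HNRNPU, which encodes a nuclear RNA-binding protein, and HNRNPU-AS1 were joined by 24 clusters with 81 and 257 tags, and HNRNPU-AS1 itself had 143 and 603. HNRNPC, another nuclear RNA-binding protein gene, was followed by 8 clusters with 17 and 56 tags that ended 214 nt before LINC00641, which had 60 and 199. The other 7 such pairs had 17 to 143 tags by the total, from POLR1A and LOC90784 at the low end to SLC4A7 and NEK10 at the high end. Over the 15 pairs, the RNA between the genes held more tags than the second gene in both replicates in 8 and fewer in both in 5.

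The remaining stretches of the 20 with the most tags differed in how they compared with the gene before them. The 30 clusters 3' of GCLM, the modifier subunit of the enzyme that starts glutathione synthesis, held 159 and 694 tags, compared with 124 and 495 for GCLM itself. The 41 clusters 3' of L3HYPDH, which encodes a hydroxyproline dehydratase, held 179 and 604 tags, compared with 92 and 366 for the gene. RSC1A1, a regulator of solute carriers, had 27 and 136 tags, and the 19 clusters past it 144 and 568. In these 3 places the stretch held more tags than the clusters assigned to the gene in both replicates. The RSC1A1 cluster nearest to its stretch was labelled coding sequence, and the transcript to which that stretch belongs was not tested.

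The 17 clusters 3' of IL1A, the cytokine interleukin-1 alpha, held 119 and 503 tags and began 32 nt past an IL1A 3'UTR cluster, while IL1A itself had 473 and 1597. VEZT, which encodes an adherens junction protein, had 283 and 945 tags and was followed by 21 clusters with 100 and 325, in front of MIR331. TRIM44 had 335 and 1136 tags and 88 and 319 past its end. These genes held more tags than the RNA after them.

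SHFM1, now named SEM1, a small proteasome subunit gene, was followed by 33 clusters with 124 and 378 tags. TMED4, a member of the p24 family of secretory transport proteins, was followed by 6 clusters with 106 and 340 tags, with DDX56 as the next gene. The stretches 3' of TOM1L1 and of UHRF1BP1L, now named BLTP3B, held 92 and 327 and 83 and 312 tags. Per 1000 tags of a replicate, the 20 stretches with the most tags ranged from 0.0862 ± 0.00447 for UHRF1BP1L to 1.37 ± 0.182 for NEAT1, as the plot of these stretches shows.

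The thirteenth stretch differed from the rest, as it lay on the mitochondrial genome, where all 6 clusters between genes (5 of them joined as this stretch on the plus strand) had no cluster with a gene ID nearby. The fullest of them, at 5288 to 5404, held 59 tags in replicate 1 and 195 in replicate 2, and the next, at 4824 to 5076, held 41 and 134. The stretch contained a gap of 9306 nt, and its clusters covered 5.22% of its length. Whether the mitochondrial clusters lie inside a gene was not tested.

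For the 328 stretches with a named 5' gene, the stretch held a median of 22.1% of the tags of that gene (quartiles 5.71% and 86.6%), and in 67 it held more than the gene. Clusters of the stretch were less dense than those of the gene in 216 stretches in replicate 1 and in 228 in replicate 2. The median log2 ratio of tags per kb of cluster, stretch over gene, was -0.33 in replicate 1 and -0.36 in replicate 2, or -0.35 ± 0.02 (SD, n = 2). Across stretches, Spearman's rho between the tags of a stretch and the 3'UTR tags of its 5' gene was 0.198 (n = 328, both counted in the same libraries).

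By the GENCODE gene order, the next gene on the strand could be named for 220 stretches, a protein-coding gene in 210 and a microRNA gene in 10. Where the table also named a gene on the 3' side, the names matched in 120 of 129. Beside MIR614 and MIR331, the microRNA genes included MIR197, behind 13 clusters 3' of the G protein subunit gene GNAI3 with 35 and 148 tags. MIRLET7I, a let-7 gene, followed 3 clusters 3' of MON2 with 8 and 12 tags. A further 5 stretches before a microRNA gene held 5 to 54 tags by the total.

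Gene families were looked up by the start of the symbol among the genes with the nearest gene clusters within 50 kb of each stretch. Zinc finger genes, which lie in dense arrays, bordered 23 stretches with 189 and 614 tags in 86 clusters. They were the 5' gene of 6.10% of the stretches with a named 5' gene, compared with 2.96% of all 7698 genes with clusters. The fullest of these was the stretch of 17 clusters 3' of ZNF639, with 48 and 152 tags, and the 13 clusters between ZNF284 and ZNF224 held 27 and 100. The labels require another gene within 10 kb, whereas the genes with clusters were not limited to those with such a neighbour. The shares are therefore not on a like background.

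Histone genes bordered 4 stretches with 52 and 229 tags in 19 clusters, and were the 5' gene of 1.22% of the stretches with a named 5' gene, compared with 0.117% (9 genes) of all genes with clusters. Of these, 32 and 170 tags in 8 clusters lay 3' of HIST1H2BK, now named H2BC12, which had 17 and 60 tags in its own clusters. For HIST2H2BE the gene cluster lay 36708 nt from the stretch. The limit on the background given for the zinc finger genes holds for the histone shares too. Symbols starting with RPL or RPS bordered 4 stretches with 61 and 161 tags, but apart from the ribosomal protein gene RPL27 and the RPS10-NUDT3 read-through gene these were the kinase genes RPS6KA3 and RPS6KB1. Serpin genes, 10 of all genes with clusters, bordered 2 stretches with 3 and 22 tags, and the HOX gene HOXD1 bordered 1 cluster with 3 and 4. Chemokines, metallothioneins, matrix metalloproteinases, small nucleolar RNA genes and their hosts, collagens and keratins bordered 0 stretches. Between 2 and 28 genes of each of these families had clusters at all, so nothing can be read from these zeros.

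Clusters between genes were found on both strands, with 45.8% (Wilson 95% interval 43.7 to 47.9) on the plus strand, compared with 53.0% of all clusters. Chromosome 19 held 3.74% of them but 1.11% of all clusters, and chromosome 6 held 8.63% but 6.37%. Chromosome X held 0.445% but 3.12%, chromosome 13 held 0.757% but 2.74%, and chromosome 2 held 7.79% but 10.6%. Of the 194 on chromosome 6, 49 belonged to the stretch 3' of LINC00472 on the minus strand.

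Agreement between the replicates was examined last. Replicate 1 gave 22.03% of the replicate tags of clusters between genes (Wilson 95% interval 21.6 to 22.4), compared with 22.3% over all clusters and 22.5% over the downstream clusters (22.4 to 22.7). Across the clusters between genes, the tags of the replicates had a Spearman's rho of 0.455, and the Pearson's r of log2(tags + 1) was 0.731 (n = 2247, clusters of the same libraries). A total of 1357 of them (60.4%) had no more than 2 tags in replicate 1, which limits what the comparison of single clusters can show.

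The split between the libraries was tested for every listed cluster with an exact binomial test and Benjamini-Hochberg adjustment, which called 0.0111% of all clusters. Of the 2247 clusters between genes, 1 was called, the NEAT1 cluster at 64965515 to 64966162, with 99 tags in replicate 1 and 602 in replicate 2. Its replicate 1 share was 14.1% (Wilson 95% interval 11.7 to 16.9), with an adjusted p of 0.000994 by the exact test. An unadjusted p under 0.05 was found for 51 of the clusters between genes (2.27%), compared with 3.04% of all clusters. The call was lost, with 0 clusters between genes called, when the expected share was taken as 20.8%, either from clusters with at least 100 tags or from the median ratio, and when the test allowed for extra variance between libraries. The other 7 clusters of the NEAT1 stretch were not called.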

How the data were processed

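Flag-RBM47 HITS-CLIP was measured in 2 replicates of 1 group. The authors made the libraries with a degenerate barcode so that copies could be counted once, and grouped the mapped tags into clusters. The authors deposited tag counts for each cluster, in a column per replicate and 1 for the total. The submitters' processing notes name Novoalign and hg18, and the aligner version was not given in the sources used here. Coordinates are printed as listed, and whether they start at 0 or 1 is not known. The authors' total was lower than the sum of the replicate columns in 293 of the clusters between genes. It was used for filters and ranks.

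The members and the gene lists were chosen with earlier results of these data known. The stretches named were the 20 with the most tags, the single clusters named were the 10 with the most tags and those past the threshold of 0.05, and a few others are given as examples of pairs of joined genes, microRNA neighbours and gene families. Gene clusters were looked for within 50 kb. Tags were compared as log2(tags + 1) within each replicate, and the confidence intervals (Wilson, 95%) cover counting error only. The p-values of the exact binomial test cover counting error only, and the beta-binomial test adds an estimate of the spread between libraries. The sign-flip permutation is bounded by the number of replicates. All p-values compare only these libraries, whose differences may be technical. GENCODE release 44 on GRCh37 served only for gene order, with the next gene of the strand sought within 20 kb, and RefSeq for current symbols, with 325 of 327 IDs of 5' genes matched. No hg18 sequence was used here. The values of 1 stretch before a microRNA gene are not reported here. The alternatives were minimums of 10 and 30 tags, a looser label rule, pseudocount 10, tags per nt, other scalings and distances, a beta-binomial test and each replicate alone. Leaving out the stretch with the most tags was in part, and the mitochondrial genome wholly, added after seeing the data. The exact binomial test was tried on simulated binomial counts, with changes planted only in clusters of at least 100 tags. The beta-binomial test was not tried on simulated counts. Python 3.11.15 was used with numpy 2.4.6, pandas 2.3.3, scipy 1.17.1 and matplotlib 3.10.9.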

Additional observations from a re-analysis of the deposited data

How the results depend on the processing

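Of 58 alternative values, 23 moved by more than the spread, the interval or, for counts, 1.5 times, and 2 reversed. Joining at gaps of at most 1 kb gave 522 stretches in place of 371. At a minimum of 10 tags there were 942 clusters between genes with 0.874% of the tags, a median length of 119 nt, a replicate 1 share of 20.8%, a Pearson's r of 0.785, 87.9% nearer to the 5' gene cluster, 186 stretches, and 20.04% of the tags in the NEAT1 stretch. At 30 tags there were 196 clusters with 0.805% of the tags, a replicate 1 share of 20.3% and 93.9% nearer to the 5' side. The log2 difference from downstream clusters reversed to 0.0142 at 10 tags and to 0.13 at 30 tags. Every cluster with both labels held 0.921% of the tags. With pseudocount 10 Pearson's r was 0.851. On the opposite strand 50.1% were nearer to the 5' side. Without the NEAT1 stretch the share of tags was 0.751%, the replicate 1 share 22.6% and Pearson's r 0.700, and without the mitochondrial genome the share of tags was 0.878%. The number of clusters with a discordant split was 0 under both other scalings and under the beta-binomial test, against 1 in the exact binomial test.

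With 1 replicate left out, the number of clusters between genes with at least 5 tags in the other was 361 to 1638, their share of tags 0.883% to 0.894%, the log2 difference -0.02 to -0.01 from downstream and 0.07 to 0.10 from upstream clusters, and the share of the NEAT1 stretch 14.1% to 16.8%. No split between libraries can be had from 1 replicate. No paired analysis was possible because both replicates belong to 1 group. The median of 2 tags in replicate 1 limits any statement on single clusters.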
